A study of Mus musculus with 2 samples.

Results

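The 500 peaks described here are the open-chromatin regions most specific to Sertoli nuclei in the mouse testis at E14.5, out of 109215 peaks in the deposited matrix. They were chosen by their measured accessibility. Barcodes with 2000 to 50000 UMIs, under 10% mitochondrial UMIs and over 500 peak counts were kept, which left 7492 of 9833. The 600 nuclei with the highest UMI share of 9 marker genes (*Sox9*, *Amh*, *Dmrt1*, *Aard*, *Sox8*, *Ptgds*, *Col9a3*, *Hsd17b3* and *Fshr*) formed the Sertoli group, and the other 6892 formed the rest. Peak counts were summed in each group and scaled to counts per 1000000 (CPM). Among the 65844 peaks of chromosomes 1 to 19 with 100 or more counts, called eligible peaks below, the 500 with the largest ratio of Sertoli CPM plus 1 to rest CPM plus 1 were selected.

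RNA and chromatin accessibility were measured in the same nuclei of whole, frozen testes with a single-nucleus multiome assay, which gave 1 RNA library and 1 ATAC library. Nuclei of both groups came from embryos with the *Nr5a1-cre* and *Rosa-tdTomato* alleles, in which the Cre is driven by *Nr5a1* regulatory sequence. For the number of pooled embryos no value was found in the labels or methods. With 1 library of each kind, nuclei are not replicates and no test between conditions was possible, so intervals below are exact 95% intervals that cover counting error only.

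Sertoli cells are the supporting cells of the testis cords. They surround the germ cells and secrete anti-Müllerian hormone, and their fate depends on SOX9, a protein of the SOX family that binds DNA through an HMG box, together with its relative SOX8, the DM-domain factor DMRT1, the zinc finger factor GATA4 and the nuclear receptor NR5A1. Enhancers are regions away from gene starts that such factors bind, and they lie open to the transposase used in ATAC-seq in the cells where they are in use.

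The windows printed first show the letters that the results below turn on. Each is the 300 bases at the centre of a peak, on the plus strand of GRCm38.p6 (mm10), with capitals at every match on either strand to AACAAT, the core that SOX proteins read, ACATTGT for DMRT factors, AGATAA for GATA factors or CAAGGTCA for NR5A1. The first pair are the peaks with the largest ratios, the next 3 lie at genes of Sertoli fate regulators, and the last 3 lie in introns of receptor and enzyme genes. The windows were picked for holding a match: of 22 windows read at the largest ratios and at list genes 7 held none, those at *Nr5a1*, *Amh*, *Inhbb*, *Pdgfa*, *Erbb4*, *Lama5* and *Espn*.
Rank 1, chr5:137966579-137966878, intergenic, with SOX and DMRT letters that overlap: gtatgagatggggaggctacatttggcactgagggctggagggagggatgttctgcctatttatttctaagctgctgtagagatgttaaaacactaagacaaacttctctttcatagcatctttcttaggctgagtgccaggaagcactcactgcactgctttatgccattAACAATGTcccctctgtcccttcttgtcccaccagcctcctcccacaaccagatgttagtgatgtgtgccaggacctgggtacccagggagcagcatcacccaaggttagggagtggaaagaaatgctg
Rank 2, chr1:4722653-4722952, intergenic, with 3 SOX matches: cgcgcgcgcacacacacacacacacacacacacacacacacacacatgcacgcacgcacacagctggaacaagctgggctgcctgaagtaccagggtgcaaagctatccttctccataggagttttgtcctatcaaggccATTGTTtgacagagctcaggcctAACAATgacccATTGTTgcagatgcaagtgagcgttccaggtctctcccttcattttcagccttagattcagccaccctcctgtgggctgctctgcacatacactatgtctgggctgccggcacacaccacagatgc
*Sox9* locus, chr11:112770531-112770830, in an intron of the noncoding gene *BC006965*, with NR5A1 and SOX letters: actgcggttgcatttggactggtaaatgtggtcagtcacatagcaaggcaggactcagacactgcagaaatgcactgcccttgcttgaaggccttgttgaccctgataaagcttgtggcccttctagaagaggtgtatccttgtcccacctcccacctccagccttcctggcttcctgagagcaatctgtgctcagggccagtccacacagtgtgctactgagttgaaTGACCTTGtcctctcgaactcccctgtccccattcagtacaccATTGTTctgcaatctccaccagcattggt
*Sox8* locus, chr17:25595537-25595836, in an intron of the neighbouring gene *Lmf1*, with GATA letters: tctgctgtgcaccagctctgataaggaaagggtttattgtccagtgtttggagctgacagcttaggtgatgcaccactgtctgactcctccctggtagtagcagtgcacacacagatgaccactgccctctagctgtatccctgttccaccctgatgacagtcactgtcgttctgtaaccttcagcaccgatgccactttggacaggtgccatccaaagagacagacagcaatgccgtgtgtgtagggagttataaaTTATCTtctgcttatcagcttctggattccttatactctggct
*Dmrt1* intron, chr19:25515099-25515398, with GATA letters: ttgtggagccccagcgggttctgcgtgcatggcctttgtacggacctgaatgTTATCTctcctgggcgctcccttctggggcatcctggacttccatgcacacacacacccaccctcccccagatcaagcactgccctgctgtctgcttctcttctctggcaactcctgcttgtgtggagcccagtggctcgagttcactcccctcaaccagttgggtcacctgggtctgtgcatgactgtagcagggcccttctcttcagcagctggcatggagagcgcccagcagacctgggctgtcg
*Fshr* intron, chr17:89177812-89178111, with DMRT letters: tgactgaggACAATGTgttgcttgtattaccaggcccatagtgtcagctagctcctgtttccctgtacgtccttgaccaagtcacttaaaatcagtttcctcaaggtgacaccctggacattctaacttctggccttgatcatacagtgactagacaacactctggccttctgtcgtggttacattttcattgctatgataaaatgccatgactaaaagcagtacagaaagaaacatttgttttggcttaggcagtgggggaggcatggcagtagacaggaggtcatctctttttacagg
*Hsd17b3* intron, chr13:64082151-64082450, with NR5A1 letters: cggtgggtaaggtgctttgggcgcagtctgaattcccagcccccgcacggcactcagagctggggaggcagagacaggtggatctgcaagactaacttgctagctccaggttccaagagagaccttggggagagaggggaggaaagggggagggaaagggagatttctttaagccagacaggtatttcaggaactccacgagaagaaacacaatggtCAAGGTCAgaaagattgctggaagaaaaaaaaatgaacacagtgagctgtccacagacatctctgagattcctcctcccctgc
*Lgr5* intron, chr10:115518723-115519022, with SOX letters and 2 GATA matches: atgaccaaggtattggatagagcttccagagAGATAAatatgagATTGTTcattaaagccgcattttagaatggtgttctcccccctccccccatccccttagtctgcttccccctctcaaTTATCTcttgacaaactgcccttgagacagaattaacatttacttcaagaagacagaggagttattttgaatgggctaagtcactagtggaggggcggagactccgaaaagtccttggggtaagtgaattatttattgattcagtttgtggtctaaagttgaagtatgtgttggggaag

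The nuclei that chose the peaks carried the RNA of Sertoli cells. Of 13 Sertoli genes that the rule did not use, 12 were higher in the Sertoli group, among them *Dhh*, the hedgehog ligand of Sertoli cells, at 49.6 against 6.22 CPM, and *Erbb4* at 4570 against 336 CPM. The exception was *Ren1*, with 34.7 CPM in the Sertoli group and 66.4 in the rest. None of the 6 Leydig genes was higher in the Sertoli group (summed 332 against 946 CPM), nor any of the 7 germ genes (48.2 against 388 CPM), and *Rhox6* of the germ list was at 0. Single genes of other class lists were higher: 3 of 5 of the supporting-like list, *Krt8* (3.26 against 0.688 CPM), *Krt18* (1.55 against 0.688 CPM) and *Cdh16* with 1 UMI in the group, and 1 each of the mesonephric (*Pax2*, 6.98 against 2 CPM), pericyte (*Mcam*, 21.4 against 8.33 CPM), immune, erythroid and surface epithelium lists. The summed level was lower in the Sertoli group for the supporting-like list too (253 against 554 CPM), most of it from 1 gene, *Ncam1* (241 against 536 CPM). The marker share had no gap at the edge of the group: it was 14.6 UMIs per 10000 at rank 600 and the same at the next rank, with 67 nuclei inside and 93 outside within 10% of that value. Median depth was 9600 UMIs and 2646.5 peak counts in the Sertoli group and 8086 UMIs and 3345 peak counts in the rest. No doublet caller was run, and free RNA was not removed.

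The selected peaks were of low to moderate height. Together they held 30415 cuts in the Sertoli group, 1.64% of its cuts at peaks, and 44757 cuts in the rest, 0.168%, a ratio of 9.79 that the rule itself fixes. It was 5.28 for the 500 peaks chosen with a count minimum of 200 and 5.57 when nuclei were ranked by *Sox9*, *Amh* and *Dmrt1* alone. Single peaks had 38 to 199 cuts in the Sertoli group (median 56) and 43 to 251 in the rest (median 79), at a median of 30.2 against 2.96 CPM. A peak had a cut in 18 to 95 of the 600 Sertoli nuclei, with a median of 28. The median over all kept nuclei was 134 cuts, against 199 for eligible peaks, and 312 of the 500 (62.4%) had under 150. Since cuts come in pairs, one at each end of a fragment, the counting error was taken from fragments, and the fragment ratios ran from 6.72 to 23.6 with a median of 9.255.

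The largest ratios belonged to peaks with few cuts in the rest. The rank 1 peak, 3189 bp from the start of *Gjc3*, which encodes a connexin, had 70 cuts in the Sertoli group and 43 in the rest, for a ratio of 14.85 after adding 1 CPM to each group. The rank 2 peak had 68 and 43 cuts (14.44). The rank 3 peak, chr16:22896200-22897174 in an intron of *Ahsg*, had 73 and 48 (14.44). Ranks 4 to 9 lay in an intergenic stretch of chromosome 2, in introns of *Acss2*, *Pdlim5* and *Esrrg*, in an exon of *Synrg* and beside *Crtac1*, at ratios from 13.88 down to 12.2. The rank 10 peak, chr17:23876712-23877565, was the tallest of these 10, with 142 and 145 cuts (12.07). At the other end there was no gap. The last 3 selected peaks, in or near *Nolc1*, *Fstl4* and *Lemd1*, had ratios of 6.348, 6.336 and 6.336, and the next 3, at *Cdan1*, near *Gm28415* and in *Snx29*, had 6.332, 6.329 and 6.326.

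The 500 peaks were chosen on all kept nuclei, so no held-out reading of them exists. A separate selection was read in nuclei that had not chosen it, and 317 of its 500 peaks are among the 500 described here. When 500 peaks were selected in the same way on the barcodes at odd positions of the deposited list, with the top 300 nuclei as the Sertoli group and a minimum of 50 counts, their pooled ratio was 10.7 (10.4 to 11) in those nuclei and 7.54 (7.31 to 7.77) in the even-position nuclei. In the even-position nuclei 487 of the 500 (97.4%) were at least 2-fold higher in the Sertoli group, against 11.5% of 65539 eligible peaks, and 405 (81%) were at least 4-fold higher, against 2.91%. Selection on the odd and on the even positions, each with 300 Sertoli nuclei and a minimum of 50 counts, shared 169 of 500 peaks (33.8%). The part of the lower counts in this overlap was not tested.

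The difference between single nuclei of both groups is one that the rule fixed, since these nuclei chose the peaks, and is given as a description. The 500 peaks drew 1.72% of the fragments at peaks in the median Sertoli nucleus and 0.0952% in the median nucleus of the rest. A Sertoli nucleus had a cut at 22 of the 500 peaks in the median, and a nucleus of the rest at 2. One Sertoli nucleus had no fragment at any of them, and 22 of 600 fell below the 95th percentile of the rest. In the rest, 52 nuclei reached the Sertoli median, of which 48 were among the 600 nuclei that follow the Sertoli group in the ranking.

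Accessibility at the 500 peaks was spread over nuclei past the edge of the group. The peaks were chosen for being high in ranks 1 to 600 and low after them, so the fall across the edge comes from values that the rule used. The share of fragments at the 500 peaks was 1.67% (1.61 to 1.74) in ranks 1 to 100, 1.75% (1.71 to 1.8) in ranks 101 to 300 and 1.53% (1.5 to 1.56) in ranks 301 to 600, while mean marker UMIs per 10000 were 35.2, 25.5 and 17.8, so within the group the share did not follow the markers step by step. It was 1.1% in the next 100 nuclei, 0.531% in ranks 901 to 1000, 0.17% in ranks 1201 to 1500 and 0.104% (0.101 to 0.107) in ranks 5001 to 7492, none of which had a marker UMI. The 600 nuclei that follow the Sertoli group, down to rank 1200, held 40.3% of the rest's fragments at these peaks and 11.1% of its fragments at all peaks. Median UMIs also rose across the edge, from 8035 in ranks 1 to 100 to 15403 in ranks 701 to 800, and the part of depth or of doublets in this slope was not tested.

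**Figure D1:**
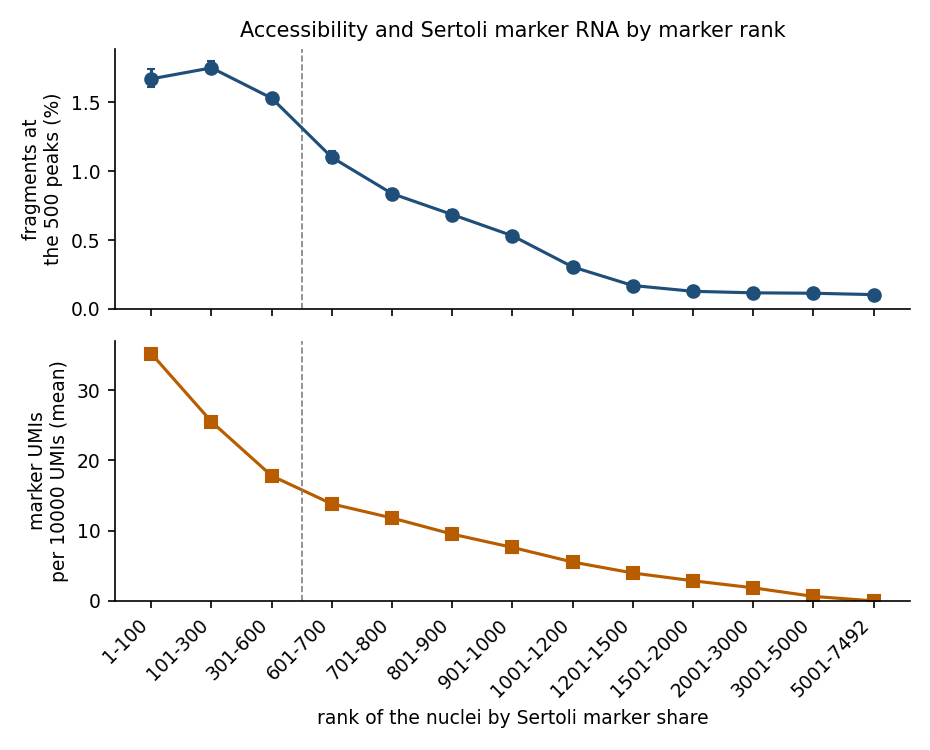
Top, share of fragments at peaks that lie at the 500 selected peaks (%, with exact 95% intervals); bottom, mean Sertoli marker UMIs per 10000; both by rank of the 7492 nuclei for the Sertoli markers, with the edge of the Sertoli group as a dashed line. The share is 1.53% to 1.75% in the 3 bins left of the line, 1.1% in the first bin right of it and 0.104% in the last.

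Sertoli nuclei with RNA of proliferation genes had nearly the same share as the others. It was 1.6% (1.57 to 1.63) in the 372 Sertoli nuclei with a UMI of *Mki67* or *Top2a*, genes of dividing cells, and 1.66% (1.62 to 1.71) in the 228 without one. Nuclei without such a UMI were shallower, with a median of 8514 against 10788 UMIs, and this comparison lies inside the nuclei that the rule used.

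Among the marker groups outside the Sertoli group, the steroid-producing Leydig nuclei and a small supporting-like group had the largest share of fragments at the 500 peaks. Groups were the nuclei of highest UMI share for each class's markers, with nuclei claimed by more than 1 class left out. The 298 Leydig nuclei had 1041 of 366081 fragments at these peaks, 0.284% (0.267 to 0.302). The 42 nuclei of the supporting-like markers (*Pax8*, *Ncam1*, *Cdh16*, *Krt8* and *Krt18*) had 0.402% (0.353 to 0.455). In the rest, *Ncam1* had 536 of the 554 CPM summed over these markers, and *Pax8*, by which the paper named this class, 16.5 CPM. How far *Ncam1* alone ranked these nuclei was not tested. The lowest shares were in mesonephric mesenchyme, 0.0782% (0.0705 to 0.0866), interstitial progenitor nuclei, 0.0873% (0.0796 to 0.0955), and contractile nuclei, 0.091% (0.0826 to 0.0999). Germ nuclei had 0.123% (0.114 to 0.133) and surface epithelium 0.118% (0.108 to 0.129), and the intervals of endothelial, immune, pericyte and erythroid nuclei lay between 0.0884% and 0.202%. These nuclei are part of the rest that the rule used, in which abundant classes weigh more, so the order of the groups is a description.

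**Figure D2:**
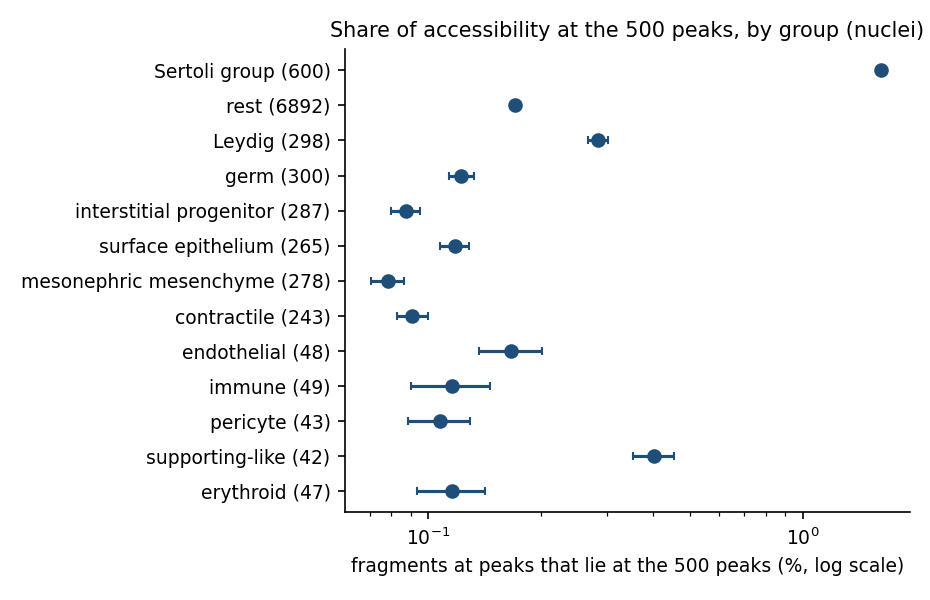
Share of fragments at peaks that lie at the 500 selected peaks (%, log axis) in the Sertoli group, the rest and 11 marker groups of the rest, with the number of nuclei in brackets; points are pooled shares and bars exact 95% intervals of counting error. The Sertoli group stands at 1.62%, the supporting-like group at 0.402%, the Leydig group at 0.284% and the 9 other marker groups at 0.167% or below.

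Sertoli marker RNA was lowest in the Leydig nuclei, at 0.622 UMIs per 10000 against 0.725 to 2.4 in the other 10 groups, and 2 of the 298 were among the 600 that follow the Sertoli group. Leaving out those 2 could hardly move the share, which was 0.284% again. Germ nuclei had 2.4 marker UMIs per 10000 (*Dmrt1* is also a germ cell gene) and 36 of 300 among those 600, and a share of 0.115% without them. Supporting-like nuclei had 1.68 marker UMIs per 10000 and a share of 0.368% (0.321 to 0.42) without the 2 that were among them.

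The Leydig signal was uneven over the peaks. Of the 500, 37 reached at least 50% of their Sertoli CPM in Leydig nuclei, against 3 in germ nuclei, 5 in surface epithelium, 1 in mesonephric mesenchyme and none in interstitial progenitor or contractile nuclei. In the small groups, with 112089 to 188114 cuts each, a peak reaches that level with few cuts, and 115 did in supporting-like, 41 in endothelial, 31 in immune, 22 in erythroid and 9 in pericyte nuclei. Of the 63051 eligible peaks with a cut in the Sertoli group, the share at that level was 68.7% in Leydig, 62% in germ, 70.9% in surface epithelium, 72.9% in mesonephric mesenchyme, 76.6% in interstitial progenitor and 76.1% in contractile nuclei. In the small groups it was 41.7% in supporting-like, 38.3% in endothelial, 33.6% in immune, 36.8% in erythroid and 51.8% in pericyte nuclei. The rule chose peaks that are low in the rest, which holds these nuclei, so nothing is read from the members' counts being below those shares or from their order. The large groups differ in depth (690573 cuts in Leydig and 1024607 in interstitial progenitor nuclei), and 134 of the peaks had no Leydig cut, against 226 with none in interstitial progenitor nuclei. The peaks of highest Leydig level, picked after their values were seen, were one between genes near *Ccdc88a*, chr11:29335217-29336119, with 28 Leydig cuts (40.5 CPM, against 28.6 CPM in the Sertoli group) and none in interstitial progenitor nuclei, and one in an intron near *Rgs11*, chr17:26206230-26207127, with 27 Leydig cuts (39.1 against 55.1 CPM). A peak 8415 bp from *Inhbb*, which encodes the βB subunit of activins and inhibin B, had 20 Leydig cuts (29 CPM) beside 96 Sertoli cuts (51.8 CPM), and none in germ nuclei. NR5A1 letters stood in 13 of the 37 (35.1%, 20.2 to 52.5) and in 96 of the other 463 (20.7%, 17.1 to 24.7). The other 3 kinds were lower in the 37: SOX letters 13.5% (4.54 to 28.8) against 23.1%, DMRT letters 5.41% (0.661 to 18.2) against 11.2% and GATA letters 18.9% (7.96 to 35.2) against 30%. For each of the 4 kinds the intervals overlap.

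Few of the 500 regions lay at gene starts. Only 27 (5.4%, 3.59 to 7.76) were within 1 kb of a start, against 25.7% of eligible peaks. The share was 8.4% with a count minimum of 200 (43.5% of eligible peaks) and also within 2 kb (29.1%). The share of eligible peaks at starts depended on height, and was 18.5% with a count minimum of 50. Eligible peaks were taller than the 500 (median 199 against 134 cuts). No comparison of location or distance here was matched for height. Introns held 285 (57%, 52.5 to 61.4, against 37.4%), exons 32 (6.4% against 4.51%) and intergenic sequence 156 (31.2% against 32.4%). The median distance to the nearest start was 15770 bp, against 11656 bp, while 34 peaks (6.8%) were over 100 kb away, against 8.55% of eligible peaks. Their widths were like those of other peaks (median 900 against 894 bp). The median GC content of the central 300 bases was 50% against 52.3%, and 50% in both sets once peaks within 1 kb of a start were left out. Over 50% of the window was masked repeat in 3.6% of the 500 and in 2.12% of eligible peaks.

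Cut sites gathered sharply at the peak midpoints. In the Sertoli group the 500 peaks had 7.74 CPM per peak and 100 bp just right of the midpoint, and 0.5226 at the left edge of a window of 1000 bp on each side. The rest had 0.6928 and 0.1856 at the same places. Other eligible peaks had 2.981 in the Sertoli group and 3.052 in the rest beside the midpoint. Short fragments, under 150 bp, made up 68.8% (68 to 69.5) of the fragments at the 500 peaks in the Sertoli group and 61.8% (61.2 to 62.4) in the rest, while at other eligible peaks the shares were 66.4% and 66.8%. Such fragments come mostly from DNA free of nucleosomes.

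**Figure D3:**
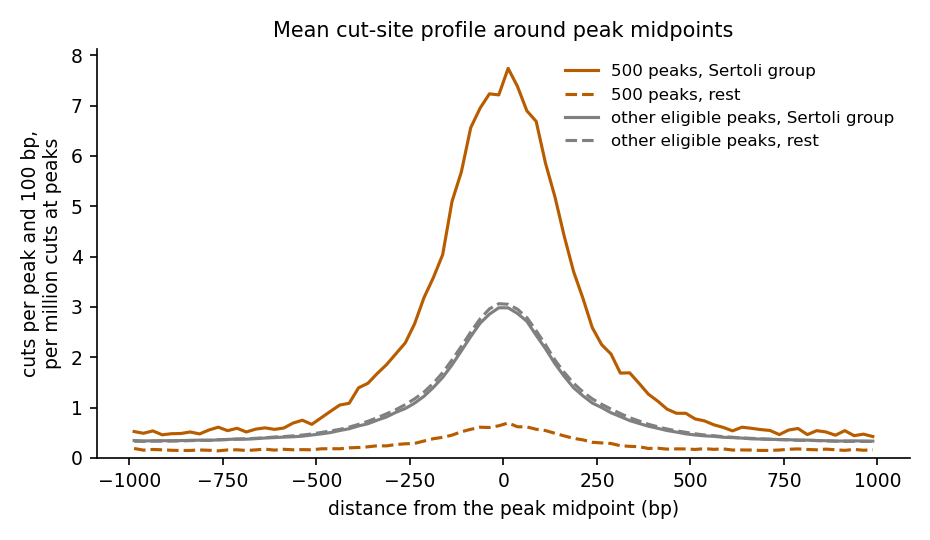
Mean transposase cuts per peak and 100 bp, in CPM of the cuts at peaks, by distance from the peak midpoint (bp), for the 500 selected peaks and the other eligible peaks in the Sertoli group (solid) and the rest (dashed). The 500 peaks reach 7.74 in the Sertoli group and 0.6928 in the rest beside the midpoint, and the other peaks about 3 in both groups (2.981 and 3.052).

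Letters read by the families of the Sertoli fate factors were more frequent in these regions than in eligible peaks, although the rule read no sequence. A match does not name the factor that binds: the paper describes similar motifs for *Nr5a1*, *Esrrg*, *Thrb* and *Rora*. In the central 300 bases, on both strands, the SOX letters AACAAT stood in 112 of the 500 (22.4%, 18.8 to 26.3) against 9.64% of eligible peaks. In the 500 chosen with a count minimum of 200 the share was 12.6% (9.82 to 15.8) against 7.04%. Of these eligible peaks 43.5% lay within 1 kb of a start, against 8.4% of those 500. Among eligible peaks farther from starts, SOX letters stood in 10.6% of those with 200 to 299 cuts and 8.59% of those with 300 or more. The DMRT letters ACATTGT stood in 54 (10.8% against 2.91%), the GATA letters AGATAA in 146 (29.2% against 15%) and the NR5A1 letters CAAGGTCA in 109 (21.8% against 5.62%). One or more of the 4 stood in 317 (63.4%) of the 500 and in 28% of eligible peaks. Leaving out peaks within 1 kb of a start gave 22.8% against 11.5% for SOX (473 and 48923 peaks), 10.8% against 3.55% for DMRT, 29.6% against 18.4% for GATA and 22% against 7.06% for NR5A1. SOX and DMRT letters can share bases, as in the rank 1 peak printed above. The DMRT letters stood apart from SOX letters in 37 of the 500 (7.4%, 5.26 to 10.1) and in 2.06% of eligible peaks.

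Paired SOX letters were rare but concentrated here. The words ACAAT and ATTGT, facing each other 3 to 5 bases apart, were found in 5 of the 500 (1%) and in 0.0501% of eligible peaks. SOX proteins of the SOX9 group can bind as dimers to such facing sites. The 4 described here are printed because so few peaks hold such pairs, with the facing words in capitals.
Near *Mrpl15*, chr1:4722817-4722831, in the rank 2 peak: ACAATgacccATTGT
Near *Igf1*, chr10:87708809-87708823: ACAATaacacATTGT
Near *Dysf*, chr6:84134983-84134997: ACAATgtgcaATTGT
Near *Adh1*, chr3:138210784-138210797: ACAATcttcATTGT
Their nearest expressed genes were 62463 to 149104 bp away. *Dysf*, a gene of membrane repair, had 105 against 17.2 CPM of RNA in the Sertoli group and the rest. *Igf1*, an insulin-like growth factor, had 22.3 against 115 CPM and *Adh1* 14.3 against 32.6 CPM, the opposite direction.

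An unguided count of words placed words of these families high, among words of none of them. Among all 2080 words of 6 letters, each taken with its reverse complement, ACAATG had the largest ratio of shares in peaks over 1 kb from a start, in 33.6% of the 473 against 12.6%. AACAAT was 4th (22.8% against 11.5%), ACCTTG, which is part of the NR5A1 letters on the other strand, was 5th (41.4% against 20.9%), and ACAAAG, another SOX-like word, was 6th (44.6% against 22.8%). The 2nd word, GTACGA, rested on 11 peaks. GAGATA, which holds the letters GATA, was 7th (24.9% against 13%), and AGATAA itself 36th (29.6% against 18.4%). ACATTG, part of the DMRT letters, was 21st (18.6% against 10.7%). ACTCCC, of none of the 4 kinds, was 12th (35.9% against 19.7%). SOX letters also lay near the midpoint: each 50 bp bin within 150 bp of it held them in 3.2% to 4.8% of the 500, against 1.62% to 1.84% of other eligible peaks. The bins from 250 to 350 bp on the right also reached 4%, against 2.18% and 2.23%. The bin from 350 to 400 bp on the left held 3.6%, against 2.3%, and that from 450 to 500 bp on the right 3.2%, against 2.44%.

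Of the other letters searched, some were more frequent in the 500 regions and some less. The nuclear receptor word AGGTCA, which the NR5A1 letters contain, stood in 39.1% (34.7 to 43.7) of the 473 distant from starts against 24.6%. AP-1 letters (TGANTCA) stood in 9.3% against 9.33%, and TEAD letters (ACATTCC) in 7.19% (5.03 to 9.9) against 6.7%. The E-box CAGCTG stood in 17.3% (14 to 21.1) against 32.1%, the homeobox word TAATTA in 3.17% (1.79 to 5.18) against 8.12%, and the long CTCF motif in 0.423% (0.0512 to 1.52) against 3.05%. TCF/LEF letters (CTTTGAT), read by the effectors of WNT signals, stood in 6.98% (4.85 to 9.66) against 4.02%. A word not found says only that those letters are not in this window.

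The letters differed along the ranked peaks, and not at an even pace. SOX letters stood in 32% of ranks 1 to 100, 18% of ranks 101 to 250, 21.2% of ranks 251 to 500, 17% of ranks 501 to 1000, 12.9% of ranks 2001 to 5000 and 7.34% of ranks 20001 to 40000. NR5A1 letters stood in 18% of ranks 1 to 100, kept 20.7% to 24% from rank 101 to rank 2000 and were at 3.36% in ranks 20001 to 40000. GATA letters kept 28% to 30.7% over ranks 1 to 2000 and were at 10.4% in ranks 20001 to 40000. In the last bin, ranks 40001 to 65844, SOX letters were at 10.4%, GATA letters at 17% and NR5A1 letters at 4.18%, above the bin before it. CTCF letters ran the other way, from 0 in ranks 1 to 100 to 4.51% in ranks 10001 to 20000, and were at 1.8% in the last bin. The share of peaks within 1 kb of a start was 4.8% in ranks 501 to 1000 and 43.5% in ranks 20001 to 40000, and this moved with the letters.

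**Figure D4:**
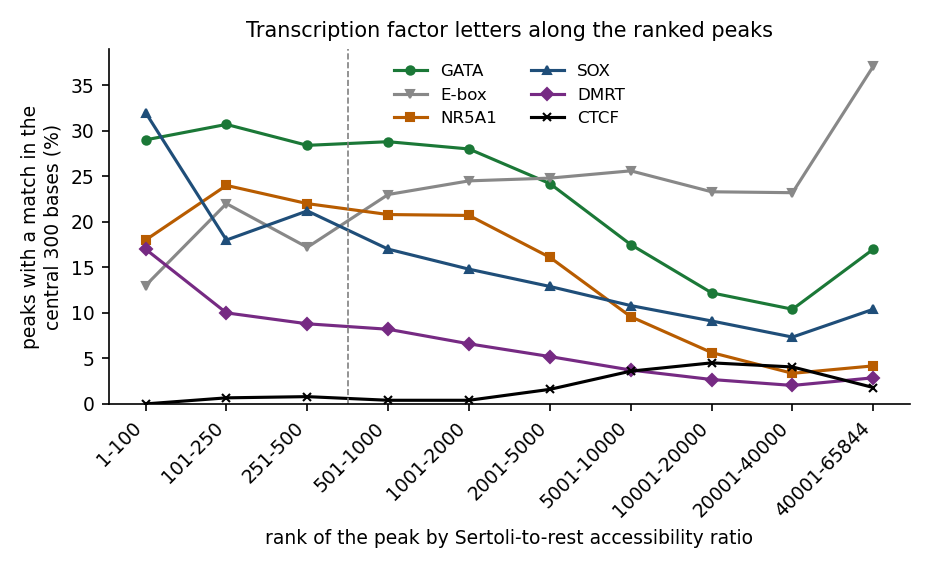
Share of peaks (%) with a match in the central 300 bases, by rank of the Sertoli-to-rest accessibility ratio over the 65844 eligible peaks, for 6 kinds of letters; the dashed line marks the 500th peak. SOX is at 32% in the first bin, 18% and 21.2% in the next 2 and 17% just right of the line. GATA stays near its level up to rank 2000. NR5A1 is at 18% in the first bin, 24% in the second and 20.7% in ranks 1001 to 2000, and CTCF is at 0 in the first bin.

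The share of peaks with each kind of letters is given here by the height of the peak, with no test of a difference between classes or kinds. Among peaks over 1 kb from a start, SOX letters stood in 27% of the 296 selected peaks with 100 to 149 cuts (13.2% of eligible peaks), 19.1% of the 110 with 150 to 199 cuts (11.7%) and 11.5% of the 61 with 200 to 299 cuts (10.6%). NR5A1 letters stood in 20.3%, 28.2% and 18% in the same classes, against 7.43%, 7.14% and 7.21%, and GATA letters in 29.1%, 30.9% and 29.5%, against 20.2%, 18.8% and 17.8%. In the class of 200 to 299 cuts the SOX count was 7 peaks. Of the 6 selected peaks with 300 or more cuts 0 held SOX letters (8.59% of eligible peaks). Both counts are too small to read a difference from eligible peaks, or its absence. When the 600 nuclei that follow the Sertoli group were left out of the rest, 265 of the 500 were selected again and the SOX share of the new 500 was 15.2% (12.2 to 18.7), against 9.13% of eligible peaks.

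RNA of the genes nearest to these regions was higher in the Sertoli group than that of genes nearest to eligible peaks. It comes from the same nuclei and contrast as the rule, so it is a description. The median log2 ratio of the nearest gene with 100 or more UMIs, Sertoli group over rest, was 0.54 (0.41 to 0.70), against −0.18 for eligible peaks. The gene was at least 2-fold higher for 191 peaks (38.2%), against 9.79% of eligible peaks, and at least 2-fold lower for 63 (12.6%), against 26.1%. The median was 1.93 for the 15 peaks within 1 kb of such a gene's start (−0.08 for eligible peaks), 0.97 for the 115 at 1 to 10 kb (−0.12), 0.49 for the 288 at 10 to 100 kb (−0.18) and 0.01 (−0.29 to 0.28) for the 82 farther away (−0.42). Of those 82, 24.4% had a nearest gene at least 2-fold higher, against 9.15% of eligible peaks at that distance, and 26.8% one at least 2-fold lower, against 36.7%.

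Read from the genes, one of the 500 peaks was more often near a gene with higher Sertoli RNA, again within the contrast that the rule used. Of 14721 genes with 100 or more UMIs, 8% had one of the peaks within 100 kb of their start. The share was 3.95% (3.24 to 4.75) among genes at least 2-fold lower in the Sertoli group, 7.45% (6.97 to 7.96) within 2-fold, 22.7% (19.6 to 26) at 2- to 4-fold higher, 28.5% (22.9 to 34.5) at 4- to 8-fold and 40.4% (27.6 to 54.2) at 8-fold or more, which is 23 of 57 genes. The remaining 34 of those 57 genes had none within 100 kb. The 3 highest bins include the 9 genes that ranked the nuclei, whose RNA the rule fixed. Without them, a count added after seeing the data, these bins held a peak for 22.4% (19.4 to 25.8), 27.9% (22.3 to 33.9) and 36.5% (23.6 to 51) of genes, and in the highest bin 19 of 52 genes had one.

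**Figure D5:**
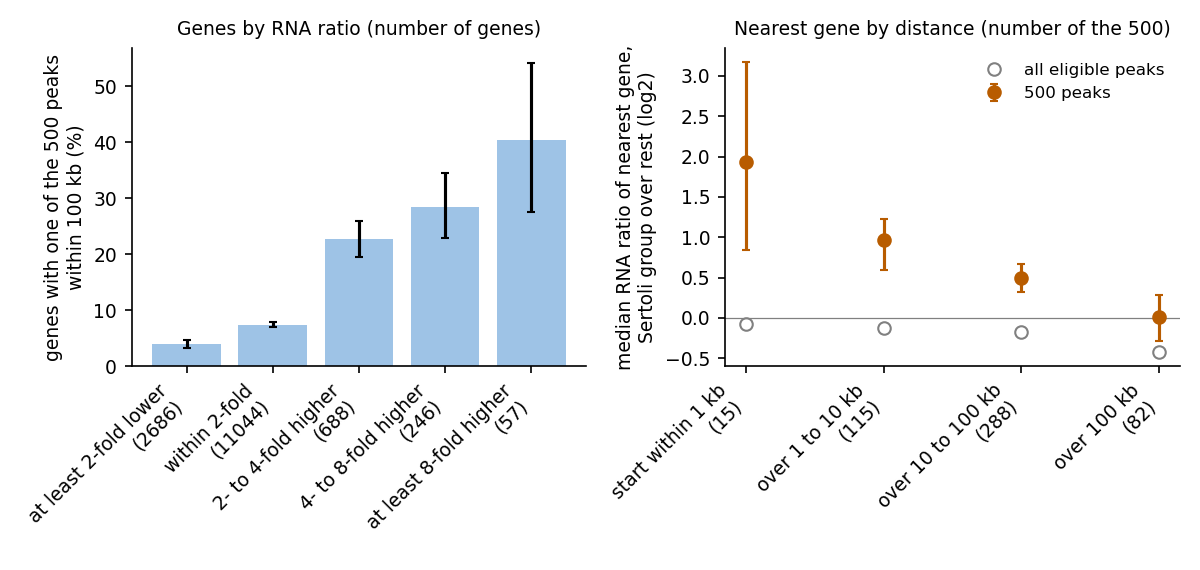
Left, share of genes (%) with one of the 500 peaks within 100 kb of their start, by RNA ratio of the Sertoli group over the rest, with the number of genes in brackets and exact 95% intervals. Right, median log2 RNA ratio of the nearest gene by its distance, for the 500 peaks (filled, with 95% intervals) and all eligible peaks (open). The bars rise from 3.95% to 40.4%, and the filled points fall from 1.93 within 1 kb to 0.01 over 100 kb.

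Regulators of Sertoli fate had a selected peak within 100 kb for 4 of 20 genes, against 8% of all genes with 100 or more UMIs on chromosomes 1 to 19. At least 2-fold higher RNA, after adding 1 CPM to each group, was found for 7 of the 20, against 6.82% of 15277 genes. *Sox9*, *Sox8* and *Dmrt1* ranked the nuclei, so the rule fixed their RNA, and they are 3 of the 4 and 3 of the 7. The lists below hold 5 more such genes, and the lists were chosen with earlier results of these data known, so nothing is read from a list's count. *Sox9*, on which Sertoli fate depends, had 2, the better one 11160 bp from its start (chr11:112770298-112771064, 65 cuts in the Sertoli group and 73 in the rest, ratio 9.659) and the other 67355 bp away (chr11:112849579-112850652, 92 and 131 cuts, 8.572). In the first, Leydig nuclei had 4 cuts and germ nuclei 0. *Sox8*, which backs up *Sox9*, had 4 in a run of 49102 bp, chr17:25560455-25609556, of which 3 lay in introns of *Lmf1*, at ratios from 6.61 to 8.92. No other run held as many of the 500, of which 47 lay within 50 kb of another. The same count was not made over eligible peaks, so nothing is read from these runs. *Nr5a1*, needed for the early gonad and for steroid synthesis, had the peak of highest Sertoli level, chr2:38734488-38735369 in an intron of its neighbour *Nr6a1*, 19946 bp from its start. It had 199 cuts in the Sertoli group and 243 in the rest (107 against 9.11 CPM), a cut in 95 of 600 Sertoli nuclei and 5.79 CPM in Leydig nuclei, although *Nr5a1* RNA was 114 against 78.9 CPM. Whether the *Nr5a1-cre* allele adds to either value was not tested. *Dmrt1* had a peak in its intron (chr19:25514777-25515722, 56 and 98 cuts) with 9.83 CPM in germ nuclei, 8.98 in mesonephric mesenchyme and 30.2 in the Sertoli group. *Gata4*, *Wt1* and *Sox10* had none within 100 kb, with RNA of 1450 against 518, 801 against 236 and 17.4 against 1.14 CPM.

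Secreted products and signals had a selected peak for 6 of 21 genes (8% of all genes), and 10 of the 21 had at least 2-fold higher RNA (6.82%). *Amh* and *Ptgds*, which ranked the nuclei, are 2 of each count. *Amh*, anti-Müllerian hormone, was the one whose peak covered its start, chr10:80804602-80805380, with 96 cuts in the Sertoli group and 163 in the rest (51.8 against 6.11 CPM), and with 10.1 CPM in mesonephric mesenchyme as its highest level in another large group. None of the 4 kinds of letters stood in its central window. *Ptgds*, prostaglandin D synthase, had an intronic peak, chr2:25467527-25468457, with 78 and 84 cuts (ratio 10.39). *Cst9*, *Defb19*, *Inhbb* and *Pdgfa* had 1 each within 100 kb, at ratios from 6.959 to 8.335. The *Cst9* peak lay at the start of another gene, *Cstdc1*, and 52780 bp from *Cst9*. The *Pdgfa* peak was 84583 bp from *Pdgfa*, with *Prkar1b* closer at 31462 bp. The hedgehog ligand *Dhh*, the stem cell factor *Kitl* and the neurotrophic factor *Gdnf* had none, with RNA ratios of 7.97, 6.21 and 6.89.

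Receptors and enzymes had a selected peak for 4 of 15 genes (8% of all genes), and 9 of the 15 had at least 2-fold higher RNA (6.82%). *Fshr* and *Hsd17b3*, which ranked the nuclei, are 2 of each count. *Fshr*, the receptor for follicle-stimulating hormone, had an RNA ratio of 28.6 (370 against 12.9 CPM) and 2 intronic peaks, chr17:89177483-89178442 (59 and 83 cuts) and chr17:89144480-89145356 (58 and 102 cuts), each with the DMRT letters. *Hsd17b3*, which completes testosterone in the fetal testis, had 993 against 47.3 CPM of RNA and an intronic peak 6514 bp from its start with 63 and 96 cuts. *Erbb4*, a neuregulin receptor, had a peak 82147 bp from its start with 58 and 56 cuts (ratio 10.43). *Gstm6*, a glutathione transferase gene, had 2.

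Cord junction and matrix genes had a selected peak for 5 of 15 genes (8% of all genes), and 7 of the 15 had at least 2-fold higher RNA (6.82%). *Col9a3*, a collagen chain that ranked the nuclei and is 1 of each count, had the largest ratio of any list gene, 11.63, in an intron (chr2:180603485-180604406, 77 and 71 cuts), with RNA of 105 against 12.2 CPM. *Espn*, an actin-bundling protein, *Itga6*, a laminin receptor subunit, and *Gja1*, a connexin, had RNA ratios of 10.1, 6.38 and 2.79. The peaks of *Espn* and *Itga6* were 48355 and 59252 bp from their starts, with *Plekhg5* and *Platr26* closer at 7084 and 7373 bp. *Lama5* had a peak at a ratio of 9.951, 51401 bp from its start, with RNA of 6.36 against 4.83 CPM. That peak was closer to the start of *Adrm1*, at 2128 bp. Of 12 genes of the ovary-side supporting programme 1 had a peak, near the 8% of all genes: *Lgr5*, a receptor for R-spondins, which was also the only one of that list with at least 2-fold higher RNA among those with 100 or more UMIs (178 against 13.7 CPM).

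Among other genes close to the 500 peaks, *Cttn*, a cortical actin protein, had 3 intronic peaks over 11810 bp (ratios 7.02 to 7.98) with RNA of 106 against 45.5 CPM, and *Fbrsl1* had 3 within 100 kb with 248 against 88.9 CPM. The nearest genes of high RNA ratio that the rule did not use included *Erbb4* (13.6), *Arhgef4* (13.4, with 2 peaks), *Fstl4* (13.3) and *Map3k21* (11.9, with a peak at its start). A high ratio of the peak did not require RNA at the nearest gene: the rank 1 and rank 2 peaks had *Zkscan1* (47.7 against 49.1 CPM) and *Mrpl15* (28.2 against 29 CPM) as nearest expressed genes, 117912 and 62463 bp away, and *Esrrg* and *Crtac1*, at ranks 9 and 7, were lower in the Sertoli group (8.22 against 36.9 and 0.465 against 5.49 CPM).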

How the data were processed

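Per the study's methods, the authors ran Cell Ranger ARC 2.0.1 on mm10 with default settings. The deposited matrix holds raw counts with no normalization: 122049390 UMIs over genes and 38243814 cuts over peaks, which were called on the nuclei of the library together, and the fragment list holds unique fragments (58448458, with 1.094 read pairs each). Recounting cuts from the fragment list gave 38236727 on chromosomes 1 to 19, X and Y, and 0.217% of non-zero matrix entries differed. Filters removed 259 barcodes under 2000 UMIs, 200 over 50000, 972 for mitochondrial share and 1198 for peak counts, categories that overlap and together hold 2341 barcodes. Neither blacklisted regions nor doublets were removed here.

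The 500 peaks, the gene lists, marker groups, letters and alternatives were chosen with earlier results of these data known. Gene starts were those of the feature table deposited by the authors, introns and exons those of GENCODE M21, and sequence that of GRCm38.p6, whose chromosome lengths match mm10. The nearest expressed gene was the nearest with 100 or more UMIs. Log2 RNA ratios and 2-fold RNA calls took a pseudocount of 1 CPM. Printed RNA ratios of single genes and ratios of pooled counts took none. Named peaks and genes were the 10 largest ratios, the 3 peaks on either side of the limit, the best peak of each list gene, the genes with the most peaks within 100 kb and the nearest genes of highest RNA ratio. Also named were peaks of highest Leydig level, peaks with paired SOX letters, further peaks of list genes, marker genes and the X-linked peak. Intervals of shares are Clopper-Pearson, those of ratios conditional binomial on fragments or UMIs, and those of medians binomial on order statistics. Scripts used numpy 2.4.6, scipy 1.17.1 and pandas 2.3.3, and were tested on simulated data. Alternatives covered the group size, the rest, the ranking genes, the filters, pseudocounts, count minimums, selection on part of the barcodes, distances and windows. One peak with paired SOX letters is counted but not reported here by name.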

Additional observations from a re-analysis of the deposited data

Results flagged for a closer look

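The selection kept to chromosomes 1 to 19, which leaves out data on the sex chromosomes. Among 1184 peaks of the X chromosome with 100 or more counts, 1 reached the ratio of the 500th selected peak, and among 16 such peaks of the Y chromosome 0 did (highest ratio 2.38). On chromosomes 1 to 19, 500 of 65844 eligible peaks were selected, from 0.534% of those on chromosome 18 to 1.01% on chromosome 5. The X-linked peak, chrX:77208471-77209382, had 47 cuts in the Sertoli group and 66 in the rest, a ratio of 7.59, and the nearest expressed gene, *Tbl1x*, started 301631 bp away.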

How the results depend on the processing

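With 1 library of each kind there was no replicate to leave out. No paired analysis was possible because the groups are nuclei of the same libraries. Most alternatives selected a partly different 500 peaks, and values in held-out nuclei are those of the separate selection on odd positions. The median log2 RNA ratio stayed positive in every alternative, while the pooled ratio and the shares cannot be negative. In each alternative the peaks used were below eligible peaks for gene starts and above them for nearest-gene RNA and SOX letters. The eligible peaks were not matched to them for height or distance to a start. The pooled ratio, 9.79, moved to 8.99 with 300 Sertoli nuclei, 11.1 with 900, 11.2 without the 600 next-ranked nuclei in the rest, 8.57 without nuclei of another class list, 5.57 when nuclei were ranked by *Sox9*, *Amh* and *Dmrt1* alone, 10 and 8.91 with pseudocounts of 0.1 and 5, 12.1 and 5.28 with count minimums of 50 and 200, 7.54 in the held-out nuclei and 9.49 in fragments. The share at gene starts, 5.4%, became 8.4% both with a count minimum of 200 (43.5% of eligible peaks) and within 2 kb (29.1%). The median RNA ratio, 0.54, became 0.77 without those 600 nuclei, 0.41 with the 3 ranking genes, 0.36 with a minimum of 50, 0.37 in the held-out nuclei, 0.39 over genes with 1 or more UMIs and 0.40 with an RNA pseudocount of 10. The median of eligible peaks, −0.18, became 0.01 with the 3 ranking genes, which narrowed the gap, and lay between −0.21 and −0.10 in the others of these. The SOX share, 22.4%, became 15.2% without those 600 nuclei (9.13% of eligible peaks), 18.2% without nuclei of another class list, 12.6% with a minimum of 200 (7.04%), and 15.2% and 28.8% in windows of 200 and 500 bases (6.29% and 16.2%). The cause was not tested. Leaving out class nuclei of ranks up to 1200, an alternative chosen after seeing the data, moved surface epithelium from 0.118% to 0.103% and kept the other 10 groups within their intervals. A minimum of 200 bars all but 71 of the 500. Those 71 had to be selected again, since the minimum does not change the ratio of a peak. With a minimum of 50, which bars none of the 500 but admits further peaks, 263 were selected again. Most peaks rest on under 150 cuts, which limits the ranking of single peaks.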
